A study of Rattus norvegicus with 6 samples.

Results

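The miR-17/92 cluster and its paralogs miR-106b/25 and miR-106a-363 are groups of microRNA (miRNA) hairpins that are each transcribed as a run of neighbouring hairpins. Their 10 guide strands measured here, the arm of each hairpin that is usually loaded into Argonaute, were followed in rat plasma exosomes. They are defined by name, from the known content of the clusters and not by their levels, and are 10 of the 763 mature miRNAs in the count table. The members are rno-miR-17-5p, rno-miR-18a-5p, rno-miR-19a-3p, rno-miR-19b-3p, rno-miR-20a-5p and rno-miR-92a-3p of miR-17/92, rno-miR-106b-5p, rno-miR-93-5p and rno-miR-25-3p of miR-106b/25, and rno-miR-363-3p of miR-106a-363, written below without the species prefix.

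Plasma exosomes came from male Sprague-Dawley rats of 7 to 8 weeks. The R-exo group (3 libraries) came from rats given remote ischemic pre-conditioning (RIPC), in which both hind limbs were occluded with rubber bands under anesthesia for 4 cycles of 5 min ischemia and 5 min reperfusion. The C-exo group (3 libraries) came from control rats without RIPC. Blood was drawn under anesthesia at 48 h in both groups, a time that the study calls the late phase of RIPC, and the exosome pellet was collected from plasma by differential centrifugation. Whether a library stands for 1 rat or a pool of rats is not given in the sources used here, so p-values measure the spread between these libraries, which may be technical.

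As background, a miRNA pairs with its target mRNAs mainly through its seed, bases 2 to 8 from the 5′ end, and miRNAs with the same seed are counted as 1 family. The guide strands of the 3 clusters fall into 4 seed families, which the clusters hold in different combinations. The miR-17/92 cluster is transcribed under MYC and E2F factors, is needed for heart, lung and B cell development, and is known as an oncogenic cluster. Its miR-17 family represses the cell cycle inhibitor Cdkn1a, and its miR-92a acts in endothelium. miR-92a and miR-25 are also abundant in red cells.

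The sequences are shown because the members fall into families by a few bases. All 10 were found in RefSeq (GRCr8), as were 686 of the 763 miRNAs of the table. The seed stands in capitals. The miR-17 seed, AAAGUGC, was carried by 4 of the 10, and in the whole table by 5 miRNAs, the other being miR-20b-5p of miR-106a-363.
miR-17-5p: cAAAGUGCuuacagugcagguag
miR-20a-5p: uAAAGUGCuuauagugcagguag
miR-93-5p: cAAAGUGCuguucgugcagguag
miR-106b-5p: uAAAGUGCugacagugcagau
miR-18a-5p stands next to them with a seed of its own, AAGGUGC.
miR-18a-5p: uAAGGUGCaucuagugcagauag
The miR-19 seed, GUGCAAA, was carried by 2 miRNAs.
miR-19a-3p: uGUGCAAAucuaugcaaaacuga
miR-19b-3p: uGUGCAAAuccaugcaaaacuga
The miR-92 seed, AUUGCAC, was carried by 3 of the 10, and in the whole table by 5 miRNAs, the others being miR-32-5p and miR-92b-3p. The families below are sums and values of the members among the 10.
miR-92a-3p: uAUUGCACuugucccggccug
miR-25-3p: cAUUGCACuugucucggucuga
miR-363-3p: aAUUGCACgguauccaucugu

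With positions counted from 1 at the 5′ end and the base of the first-named miRNA written first, miR-17-5p and miR-20a-5p differed by C1U and C12U. miR-19a-3p and miR-19b-3p differed only by U11C over 23 bases. miR-92a-3p and miR-25-3p differed by U1C, C14U and C18U over the 21 bases compared, while miR-92a-3p and miR-363-3p differed at 11 of 21 bases, all outside the seed. The seed of miR-18a-5p was set apart from that of miR-17-5p by A4G. How reads that match several miRNAs were counted is not given in the sources used here, so a split between miR-19a-3p and miR-19b-3p, or between miR-17-5p and miR-20a-5p, is uncertain to that extent.

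In RefSeq GRCr8 the 6 hairpins of miR-17/92 lie at chr15:98587861-98588622 on the plus strand, which is 762 bases from the first to the last mature base. The 3 hairpins of miR-106b/25 lie at chr12:22156652-22157123 on the minus strand, within the span of Mcm7, a subunit of the replicative helicase. The 5 hairpins of miR-106a-363 lie at chrX:137342788-137343637 on the minus strand, and no listed gene spans them or those on chromosome 15. miR-17-5p, miR-19b-3p and miR-92a-3p are made with 1 identical sequence from both the chromosome 15 and the X copies, so their counts cannot be assigned to a cluster. miR-18a-5p, miR-19a-3p and miR-20a-5p belong to chromosome 15 only, and miR-363-3p to X only. The submitters' processing notes name the build rn6, and the positions above are those of RefSeq GRCr8, not of the authors' alignment.

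The libraries held between 5484209 and 7531737 counts, and a floor of 3 counts corresponded to a level of 0.369 to 0.672 CPM, a scale on which libraries of unequal depth can be compared. The third C-exo library stood apart from its group. Its Spearman correlation over miRNAs was 0.902 and 0.931 with the other C-exo libraries and 0.965 to 0.983 with the R-exo libraries, and its level was nearer to the mean of R-exo than to the mean of its own group-mates in 7 of the 10 guide strands and in 331 of the 404 miRNAs tested (81.9%). Comparisons are therefore also given without it, which for the counts of groups that do not overlap, the count of passenger and related miRNAs called and the arm ratios was chosen after seeing the data. No miRNA in the table defines an exosome, so the labelled sample type was not checked by markers.

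The 10 guide strands together took 1.81%, 1.31% and 2.76% of the counts of the C-exo libraries and 2.002%, 3.05% and 1.93% of those of the R-exo libraries, so the groups overlapped. Wilson 95% intervals, which cover counting error only, were 1.30% to 1.32% for the lowest library and 3.04% to 3.06% for the highest. miR-25-3p and miR-92a-3p made up 86.7% to 92.9% of these counts in every library. By mean level miR-25-3p was the 19th miRNA of the table in C-exo and the 23rd in R-exo, and miR-92a-3p the 26th and the 33rd. miR-18a-5p, the least abundant member, ranked 281 and 252.

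The order of the mean levels in C-exo was miR-25-3p, miR-92a-3p, miR-17-5p, miR-19b-3p, miR-93-5p, miR-363-3p, miR-20a-5p, miR-106b-5p, miR-19a-3p and miR-18a-5p. In TMM-normalized CPM, the scale of all levels here, only the steps from miR-92a-3p to miR-17-5p and from miR-19a-3p to miR-18a-5p were free of overlap between libraries. In R-exo miR-93-5p led the middle group, ahead of miR-17-5p, miR-20a-5p, miR-19b-3p and miR-363-3p, whose ranges overlapped, and all libraries of these 5 lay above those of miR-106b-5p. Read counts of different miRNAs also depend on how well each is ligated and copied, so this is an order of reads and not of molecules.

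**Figure D1:**
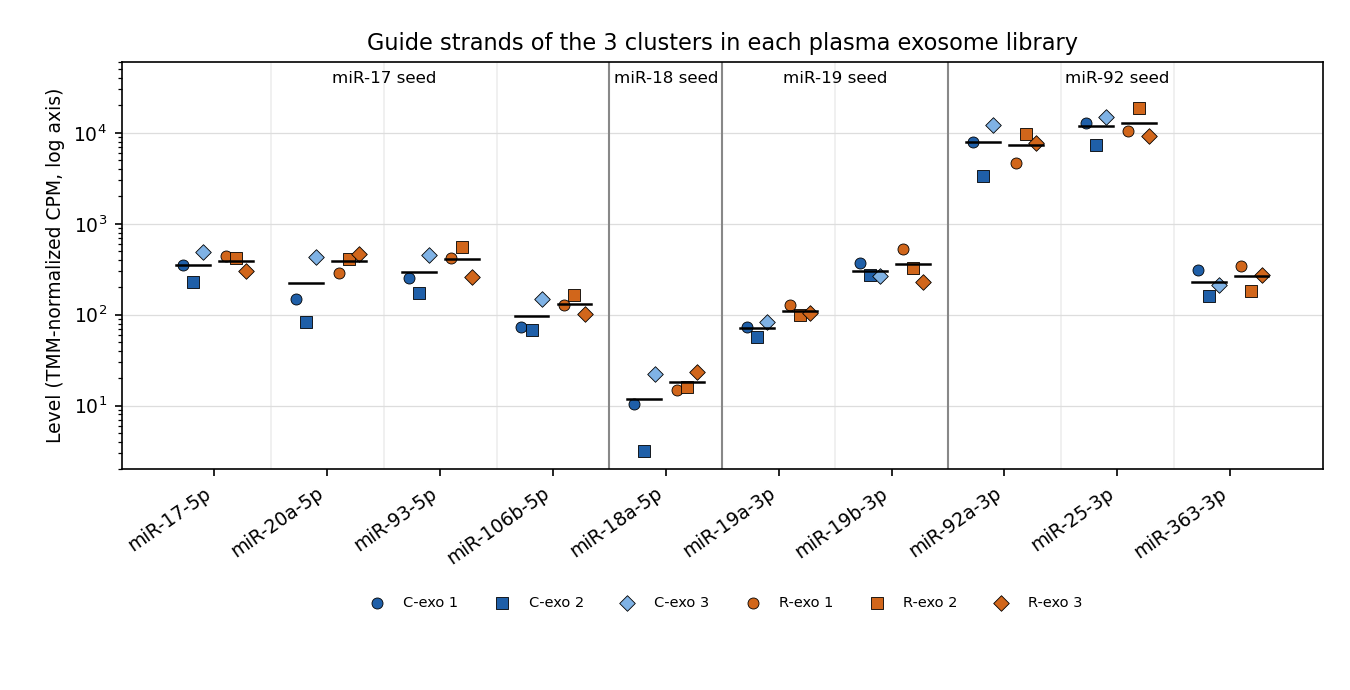
Level of each guide strand in each library in TMM-normalized CPM on a log axis, grouped by seed family, with C-exo in blue, R-exo in orange and the arithmetic mean of 3 libraries as a bar. R-exo lay wholly above C-exo for miR-19a-3p alone, and the light blue point of the third C-exo library lay within the range of the R-exo points for 7 of the 10, in all 4 seed families.

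The question of the comparison was whether the exosomal miRNA content differed at the late phase of RIPC. None of the 10 guide strands passed the criterion of the study, more than 2-fold in either direction at an unadjusted p under 0.05, which 38 of the 404 miRNAs tested passed (9.41%, made up of 1.98% higher and 7.43% lower in R-exo). By edgeR's quasi-likelihood test none had an unadjusted p under 0.05, and none had a Benjamini-Hochberg adjusted p under 0.05, nor did any of the 404, of which 38 had an unadjusted p under 0.05. DESeq2, edgeR's exact test and limma-voom also called none of the 10. The estimated log2 fold changes ran from -0.087 to 0.81 and were above 0 for 9 of 10, where 48.8% of all tested miRNAs were above 0. Their median was 0.34, beside -0.046 over all tested miRNAs.

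Scaling by library size alone moved these medians to 0.52 and 0.10, and all 10 log2 fold changes were then above 0, beside 54.2% of all tested. No guide strand passed the criterion under that scaling, while 8.17% of all tested did. Of those 33 miRNAs 18 were higher in R-exo (4.46% of all tested), against 8 of 38 with TMM. Both medians moved up together.

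In the miR-17 family, the repressors of Cdkn1a and of other brakes on the cell cycle, miR-17-5p measured 349, 229 and 491 CPM in C-exo against 447, 418 and 304 CPM in R-exo. These groups overlapped widely, with a mean of 356 ± 131 against 389 ± 75.4 (SD, n = 3 each). The log2 fold change was 0.13 ± 0.45 (SE), with an edgeR adjusted p of 0.89 and an exact permutation p of 0.7.

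miR-20a-5p, which also represses E2F1, had the largest estimated change of the 10. It measured 148, 84.1 and 430 CPM in C-exo against 285, 409 and 469 CPM in R-exo. The first and second C-exo libraries were below every R-exo library, and the third was between the second R-exo and the third R-exo library. The means were 221 ± 184 and 388 ± 93.7 CPM, and the log2 fold change of 0.81 ± 0.61 had an adjusted p of 0.51 (edgeR) and an exact permutation p of 0.3. Without the third C-exo library the log2 fold change was 1.75 ± 0.46 with an edgeR adjusted p of 0.014.

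miR-93-5p measured 252, 172 and 454 CPM in C-exo against 422, 555 and 258 CPM in R-exo. Its lowest R-exo library, the third, was barely above the first C-exo library, and the groups overlapped through the third C-exo library. The means were 292 ± 145 and 412 ± 149 CPM (log2 fold change 0.49 ± 0.51, edgeR adjusted p = 0.63).

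miR-106b-5p, from the same precursor transcript as miR-93-5p, measured 73.1, 68.1 and 150 CPM in C-exo against 127, 163 and 102 CPM in R-exo. The libraries kept the same pattern, with the third C-exo and the second R-exo library highest. The means were 97.1 ± 46.0 and 131 ± 30.4 CPM, and the log2 fold change was 0.43 ± 0.47 (edgeR adjusted p = 0.65). Without the third C-exo library the R-exo libraries were above the remaining C-exo libraries for both miR-93-5p and miR-106b-5p, with log2 fold changes of 0.97 and 0.90 and edgeR adjusted p of 0.11 for each. With other libraries left out they went as low as 0.24, without the second R-exo library for miR-93-5p and without the first C-exo library for miR-106b-5p.

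miR-18a-5p, which represses connective tissue growth factor, was counted 47, 25 and 156 times in C-exo and 120, 113 and 178 times in R-exo. These counts corresponded to 10.5, 3.20 and 22.2 CPM in C-exo against 14.8, 16.2 and 23.5 CPM in R-exo. The first and second C-exo libraries were again the lowest of the 6. The means were 11.97 ± 9.58 and 18.2 ± 4.66 CPM, and the log2 fold change was 0.60 ± 0.66 (edgeR adjusted p = 0.65). It was 1.44 without the third C-exo library, where it passed the criterion but had an edgeR adjusted p of 0.066, and it was 0.20 without the second C-exo and 0.37 without the third R-exo library.

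In the miR-19 family miR-19a-3p measured 73.7, 56.5 and 83.9 CPM in C-exo against 129, 98.3 and 104 CPM in R-exo. It was the only guide strand for which every R-exo library was above every C-exo library, a pattern that 4.95% of all tested miRNAs had in this direction. The means were 71.4 ± 13.9 and 110 ± 16.0 CPM. The log2 fold change of 0.63 ± 0.40 had an unadjusted p of 0.15 and an adjusted p of 0.51 (edgeR), and the exact permutation p of 0.1 is the smallest that 3 against 3 allows. The third C-exo library did not decide this value, since leaving out each library in turn gave log2 fold changes of 0.53 to 0.77.

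miR-19b-3p, which differs from it by 1 base, measured 371, 272 and 270 CPM in C-exo against 534, 324 and 230 CPM in R-exo. The highest and the lowest of the 6 values were both in R-exo. The means were 304 ± 57.8 and 362.6 ± 156 CPM, and the log2 fold change was 0.25 ± 0.46 (edgeR adjusted p = 0.80).

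In the miR-92 family, miR-92a-3p, which represses integrin alpha 5 in endothelium, measured 7885, 3313 and 12335 CPM in C-exo against 4656, 9750 and 7744 CPM in R-exo. Both the lowest and the highest library were C-exo. The means were 7844 ± 4511 and 7383 ± 2566 CPM, and the log2 fold change was -0.087 ± 0.54 (edgeR adjusted p = 0.95). Its sign turned under other scalings, with 0.094 by library size alone, and was 0.41 without the third C-exo library, so no direction is given for it.

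miR-25-3p, a repressor of the pro-apoptotic Bim, measured 12786, 7437 and 15103 CPM in C-exo against 10359, 18638 and 9254 CPM in R-exo. The second R-exo library was the highest and the second C-exo library the lowest, and of the remaining 4 both C-exo libraries were above both R-exo libraries. The means were 11775 ± 3932 and 12751 ± 5129 CPM, with a log2 fold change of 0.11 ± 0.46 (edgeR adjusted p = 0.91).

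miR-363-3p, the member made on X only, measured 307, 163 and 214 CPM in C-exo against 345, 183 and 271 CPM in R-exo. The values of the groups alternated when ordered. The means were 228 ± 73.1 and 266 ± 80.8 CPM, and the log2 fold change was 0.23 ± 0.45 (edgeR adjusted p = 0.82), and 0.075 without the second and 0.46 without the first C-exo library.

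**Figure D2:**
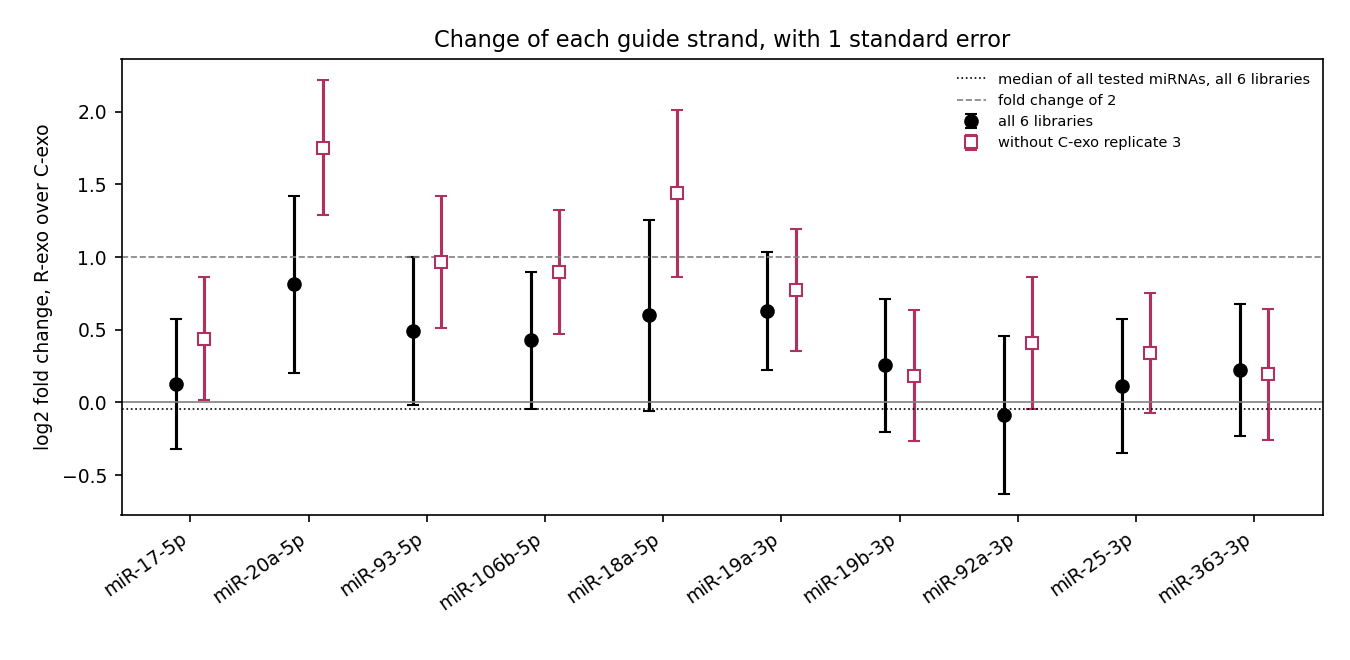
Log2 fold change of R-exo over C-exo for each guide strand, with 1 standard error derived from the edgeR test. Black points are all 6 libraries and open squares leave out the third C-exo library. Dashed and dotted lines stand at a fold change of 2 and at the median of all tested miRNAs. No black point reached the dashed line, and the open squares of miR-20a-5p (1.75) and miR-18a-5p (1.44) were above it.

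Without the third C-exo library 2 of the 10 guide strands, miR-20a-5p and miR-18a-5p, passed the criterion, both higher in R-exo. In that setting 43.1% of all 422 miRNAs tested passed it, and 23.7% of all tested did so in this direction. At an adjusted p under 0.05 (edgeR) miR-20a-5p alone passed, against 31.3% of all, or 17.3% in this direction. The R-exo libraries were then wholly above the 2 remaining C-exo libraries for 5 of 10, namely miR-20a-5p, miR-93-5p, miR-106b-5p, miR-18a-5p and miR-19a-3p, as they were for 31.7% of the 404 miRNAs tested with all libraries. All 10 log2 fold changes were above 0, beside 50.2% of all, and their median was 0.61, beside 0.013 over all tested miRNAs.

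Summed over families, the miR-17 family reached 822, 553 and 1525 CPM in C-exo against 1282, 1545 and 1134 CPM in R-exo. The miR-19 family reached 444, 328 and 354 CPM against 662, 422 and 334 CPM. The miR-92 family reached 20978, 10913 and 27652 CPM in C-exo against 15360, 28571 and 17270 CPM in R-exo. Every one of these sums overlapped between the groups, and the log2 ratios of the group means were 0.45, 0.33 and 0.040. With 1 library left out they ranged from 0.17 to 0.94 for the miR-17 family, lowest without the second and highest without the third C-exo library, and from 0.011 to 0.53 for the miR-19 family, lowest without the first and highest without the third R-exo library. For the miR-92 family the sign turned, from -0.28 without the second R-exo library and -0.25 without the second C-exo library to 0.36 without the third C-exo library.

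By genomic origin, the summed level of the guide strands made from miR-17/92 alone (miR-18a-5p, miR-19a-3p and miR-20a-5p) was 232, 144 and 536 CPM in C-exo against 429, 523 and 597 CPM in R-exo. The first and second C-exo libraries were below all R-exo libraries and the third was within them, and the log2 ratio of the means, 304 ± 206 and 516 ± 84.2 CPM, was 0.76. It was 0.43 without the second and 1.46 without the third C-exo library. The miR-106b/25 cluster summed to 13111, 7677 and 15707 CPM in C-exo against 10909, 19357 and 9615 CPM in R-exo, with a log2 ratio of means of 0.13. The guide strands shared by chromosomes 15 and X had a log2 ratio of means of -0.064. With 1 library left out the sign of both turned, with ranges of -0.25 to 0.35 for miR-106b/25 and of -0.42 to 0.39 for the shared guide strands, each highest without the third C-exo library and lowest without the second R-exo or the second C-exo library, respectively. A sum is dominated by its most abundant member, so the last 2 values describe mainly miR-25-3p and miR-92a-3p.

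Ratios between 2 guide strands within a library do not depend on the scaling of the library. Of the 6 ratios compared, between members that share a seed or a cluster, none passed the test between the groups, with exact two-sided permutation p of 0.2 to 1 and Benjamini-Hochberg adjusted p of 0.6 to 1 over the 6. These p-values could not fall below 0.1 with 3 libraries a group, and they do not show that the ratios were alike. miR-25-3p exceeded miR-92a-3p in all 6 libraries, by 1.62, 2.24 and 1.22 times in C-exo and 2.23, 1.91 and 1.19 times in R-exo. The order of this pair was therefore the same in every library although the level of each moved by over 2 times between libraries.

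The ratio of miR-93-5p to miR-20a-5p was 1.70, 2.04 and 1.05 in C-exo against 1.48, 1.36 and 0.551 in R-exo. miR-20a-5p exceeded miR-93-5p only in the third R-exo library. The log2 difference, R-exo minus C-exo, was -0.58 (exact permutation p = 0.4), and ranged from -0.85 without the third C-exo library to -0.12 without the third R-exo library. The ratio of miR-19a-3p to miR-17-5p, which has an X copy besides its miR-17/92 copy, was 0.212, 0.247 and 0.171 in C-exo against 0.288, 0.236 and 0.342 in R-exo, a log2 difference of 0.46 (exact permutation p = 0.2). Within miR-106b/25 the ratio of miR-93-5p to miR-25-3p had a log2 difference of 0.44 (exact permutation p = 0.3), and ranged from 0.27 without the first R-exo library to 0.60 without the third C-exo library.

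**Figure D3:**
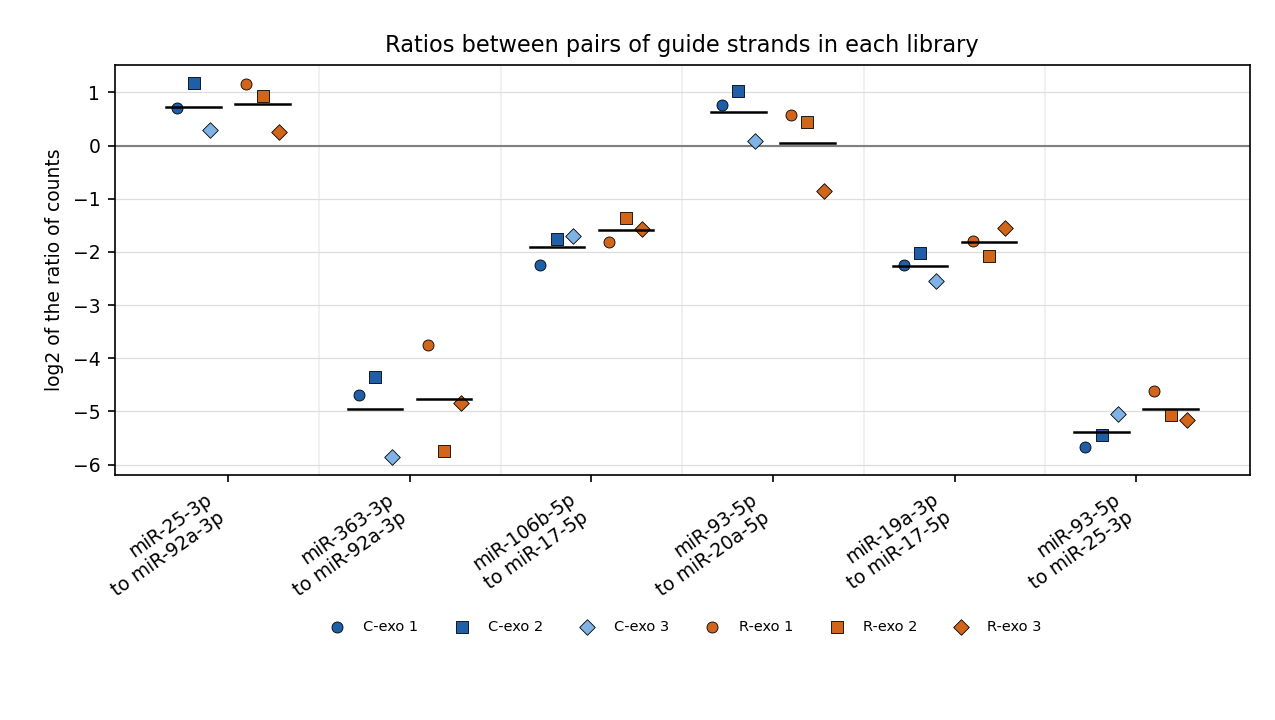
Log2 ratio of the counts of 2 guide strands in each library, with 0.5 added to each count, for 4 pairs with the same seed and 2 pairs with different seeds, and the mean of 3 libraries as a bar. The groups overlapped for all 6 pairs, and the ratio of miR-25-3p to miR-92a-3p stayed above 0 in every library.

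Each hairpin also yields a passenger strand from its other arm, which is usually degraded. Of 13 passenger strands listed, 11 had a count and 8 passed the filter on low counts. Of these 8, 1 had a log2 fold change above 0 and 7 below, with a median of -0.72, beside -0.046 over all tested miRNAs. The median rested on the first C-exo library, without which it was -0.14, with 2 of 8 above 0. miR-93-3p alone passed the criterion, as a call lower in R-exo, a direction in which 7.43% of all tested miRNAs passed. It was counted 306, 210 and 71 times in C-exo and 117, 54 and 61 times in R-exo, or 68.6, 26.9 and 10.1 CPM against 14.4, 7.75 and 8.05 CPM.

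The third C-exo library was again within the R-exo range for miR-93-3p, and the other C-exo libraries were above it. The log2 fold change was -1.80 ± 0.69, with an unadjusted p of 0.027 and an adjusted p of 0.46 (edgeR). The call was lost with limma-voom (unadjusted p = 0.065) and when the first C-exo, the second R-exo or the third R-exo library was left out, with log2 fold changes of -2.23 to -0.98 over the libraries left out. Without the third C-exo library the edgeR adjusted p was 0.0078.

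The Mir93 hairpin is shown because it holds the only passenger strand called. Log2 fold changes above 0 for the guide and below 0 for the passenger strand were also estimated for mir-25, mir-106b, mir-18a and mir-363. With 1 library left out these signs held for mir-18a and mir-363. They did not hold for miR-106b-3p (0.092 without the first C-exo library) or miR-25-3p (-0.25 without the second R-exo library). The Mir93 hairpin lies at chr12:22156844-22156930 (GRCr8, minus strand), and its capitals mark miR-93-5p and then miR-93-3p.
Mir93: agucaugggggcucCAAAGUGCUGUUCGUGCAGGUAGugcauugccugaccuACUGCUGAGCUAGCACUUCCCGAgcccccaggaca
The count of miR-93-5p was 3.67, 6.37 and 44.6 times that of miR-93-3p in C-exo and 29.2, 71.0 and 31.9 times in R-exo. The third C-exo library lay within the R-exo range, and the other C-exo libraries lay below it by over 4 times. The log2 difference of the arm ratio was 1.99, and 3.06 without the third C-exo library. Its value without any of the other libraries was not computed. These arm ratios were chosen after values had been seen and carry no test.

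miR-106b-3p, labelled here as a passenger strand, was the more abundant arm of its hairpin in 6 of 6 libraries, with 871, 364 and 212 CPM in C-exo against 381, 288 and 313 CPM in R-exo.
miR-106b-3p: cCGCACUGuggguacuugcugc
Its highest library was the first C-exo library and its lowest the third. The log2 fold change was -0.56 ± 0.55 (edgeR adjusted p = 0.61), and it was 0.092 without the first C-exo library. miR-18a-3p exceeded miR-18a-5p in 5 of 6 libraries, with 39.7, 14.6 and 24.5 CPM in C-exo against 16.9, 21.5 and 21.5 CPM in R-exo (log2 fold change -0.39 ± 0.49, edgeR adjusted p = 0.70). Guide and passenger names therefore did not follow the order of the counts for these hairpins. The log2 fold change of miR-18a-3p was -0.0010 without the first C-exo library and -0.65 without the second.

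For mir-25 the guide strand was counted 1108, 1734 and 5446 times as often as the passenger strand in C-exo, and 3059.5, 4899 and 2985 times as often in R-exo, on passenger counts as low as 19. For mir-363 the arm ratio was 16.0, 22.1 and 21.98 in C-exo against 38.6, 23.0 and 39.2 in R-exo. Every R-exo library was above C-exo, but the second only barely, on 55 passenger counts against 57 in the second C-exo library. For mir-19a the arm ratio was lower in every R-exo library, but on 1, 1 and 6 passenger counts in C-exo and 13, 13 and 10 in R-exo. The miR-20a-3p counts were 0, 0 and 6 in C-exo against 2, 0 and 0 in R-exo, too few for a ratio.

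**Figure D4:**
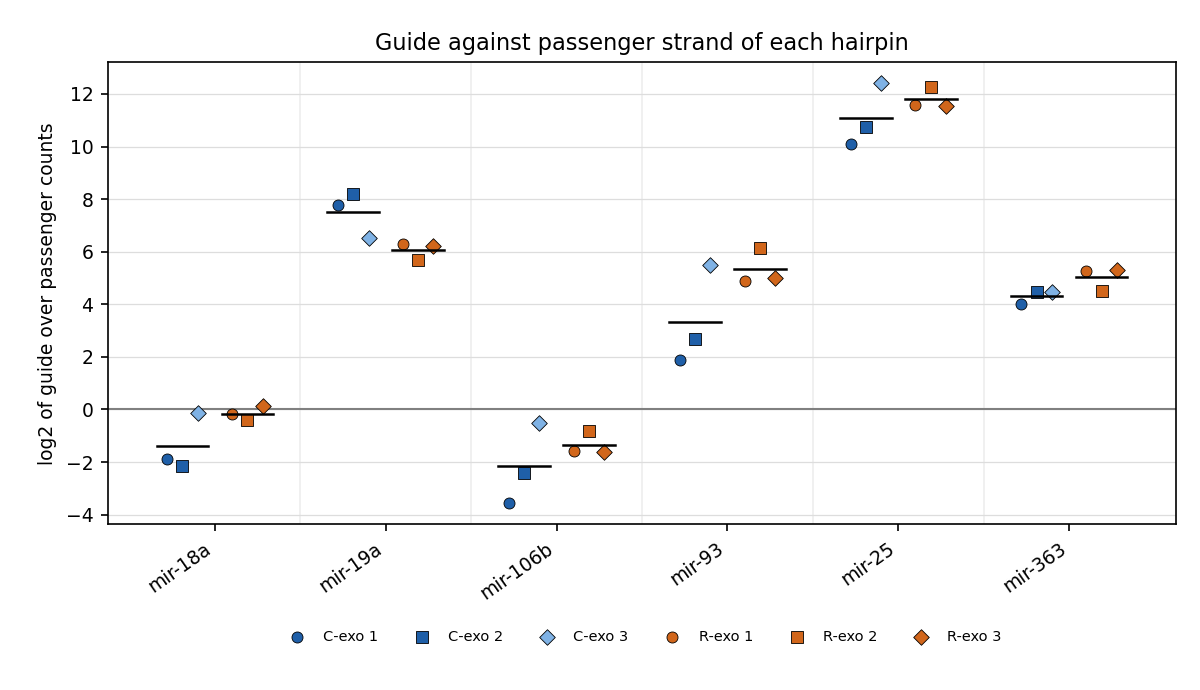
Log2 of guide over passenger counts for 6 hairpins in each library, with 0.5 added to each count and the mean of 3 libraries as a bar. mir-106b lay below 0 in every library, and for mir-93 the first and second C-exo libraries lay below all others.

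The passenger strands also separate the chromosome 15 and X copies, whose guide strands are identical. These were named after their values were seen. miR-92a-1-5p of chromosome 15 was counted 55, 38 and 10 times in C-exo and 39, 16 and 15 times in R-exo, while miR-92a-2-5p of X was at 0 in all 6 libraries, which allows at most 0.369 to 0.672 CPM in a library. miR-19b-1-5p had 1 to 4 counts and miR-19b-2-5p had 0 in each. For miR-17 the passenger strand of the X copy was the more abundant, with miR-17-2-3p at 76, 144 and 96 counts in C-exo and 211, 168 and 162 in R-exo, beside 22, 47 and 7 and then 25, 9 and 13 counts of miR-17-1-3p. A passenger strand is retained to a different extent from each hairpin, so these counts do not give the share of the guide strand from each copy.

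Among 6 other miRNAs of the same seeds or clusters, 4 were in the table and tested, 3 of them had log2 fold changes above 0, and none passed the criterion. miR-20b-5p, the other miRNA with the miR-17 seed and named here after its values were seen, was counted 19, 22 and 72 times in C-exo against 87, 49 and 56 times in R-exo, with the third C-exo library again within the R-exo range (log2 fold change 0.53 ± 0.61, edgeR adjusted p = 0.66). Its log2 fold change ranged from 0.25 to 1.27 with 1 library left out, and it passed the criterion without the third C-exo library (edgeR unadjusted p = 0.046). The table used here does not list miR-106a-5p and miR-18b-5p. miR-32-5p, which has the miR-92 seed but lies in none of the 3 clusters, measured 37.0, 32.6 and 209 CPM in C-exo against 116, 261 and 224 CPM in R-exo.
miR-32-5p: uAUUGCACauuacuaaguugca
Its first and second C-exo libraries were below all R-exo libraries by over 3 times, and the third was among them. The log2 fold change was 1.11 ± 0.74 (edgeR adjusted p = 0.51), and 2.54 with an edgeR adjusted p of 0.0053 without the third C-exo library. miR-92b-3p, with the same seed, measured 69.0, 41.2 and 122 CPM in C-exo against 48.0, 129 and 126 CPM in R-exo (log2 fold change 0.38 ± 0.56, edgeR adjusted p = 0.76), with a range of 0.12 without the second C-exo library to 0.89 without the third. Without the third C-exo library 5 of 13 tested passenger and related miRNAs passed the criterion, 3 of them higher and 2 lower in R-exo, beside 43.1% of all tested, 23.7% as higher and 19.4% as lower. Among the 3 higher calls was miR-19a-5p, which passed the low-count filter in this setting through its R-exo counts (1 and 1 counts in C-exo against 13, 13 and 10 in R-exo) and was not tested with all libraries.

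The patterns most like each family sum were sought over the 6 libraries as the smallest root mean square difference of centred log2 CPM, among 394 miRNAs outside the 10. For the miR-17 family they were miR-15b-3p (0.14), miR-30e-3p (0.17) and miR-30c-5p (0.18), where the median over all compared was 0.78. For miR-18a-5p they were miR-200c-3p (0.18), miR-300-3p (0.25) and let-7f-1-3p (0.25). For the miR-19 family they were miR-146a-5p (0.19), miR-221-5p (0.21) and miR-702-3p (0.23), and for the miR-92 family miR-139-5p (0.18), miR-200b-5p (0.19) and miR-183-5p (0.24). Libraries and depth are shared by all of these, so the likeness is a description.

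Markers of the cells that release miRNAs into plasma varied between libraries as well. The 5 red cell markers summed to 69911 to 198165 CPM in C-exo against 44964 to 75813 CPM in R-exo, mostly miR-486, which was highest in the first C-exo library (195795 CPM) and lowest within C-exo in the third (64399 CPM), and 2 of them, miR-144-3p and miR-144-5p, passed the criterion as higher in R-exo. The 4 leukocyte and platelet markers summed to 3553 to 21385 CPM in C-exo against 11448 to 26859 CPM in R-exo, and the third C-exo and the second R-exo libraries were the highest in their groups. That sum was mostly miR-142-5p, with 18749 and 24668 CPM in those libraries, while miR-142-3p was highest in the first library of each group (550 and 965 CPM), as was miR-223-3p (793 and 575 CPM). The 2 endothelial markers summed to 4722 to 16771 CPM in C-exo against 20585 to 30331 CPM in R-exo, where 1 of them, miR-126a-3p, passed the criterion as higher. The 2 liver markers summed to 79580 to 108013 CPM in C-exo against 75197 to 80646 CPM in R-exo, and the 3 muscle markers to 1467 to 9539 and 1622 to 4949 CPM. No marker was at 0 in any library.

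The log2 ratio of miR-451-5p to miR-23a-3p, a usual measure of haemolysis, was -0.36, -0.22 and 0.56 in C-exo against -0.79, 0.88 and -0.82 in R-exo. It was highest in the third C-exo and the second R-exo library. The summed level of the 10 guide strands was also highest there, at 29553 and 30554 CPM, against 11797 to 22255 CPM in the other 4. That sum was mostly miR-25-3p and miR-92a-3p. The second C-exo library had the next highest ratio but the lowest sum. Members did not all follow the sum, since miR-363-3p was lowest within R-exo in the second library (183 CPM). miR-16-5p was also highest in the third C-exo and second R-exo libraries (638 and 854 CPM), with 629 CPM in the third R-exo library. miR-144-5p was highest within each group in these libraries (83.3 and 215 CPM). miR-144-3p was highest in the second R-exo library (472 CPM), but within C-exo in the first (212 CPM). The summed red cell markers, mostly miR-486, did not follow the order of the ratio, and their lowest C-exo library was the third. The part of red cell lysis and of the other cell sources in the levels of the guide strands was not tested. In these bulk libraries, fewer exosomes of a source and less of a miRNA in each exosome cannot be told apart.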

How the data were processed

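Small RNA libraries of rat plasma exosomes (3 C-exo, 3 R-exo) were sequenced on an Illumina HiSeq instrument. The table deposited by the authors holds raw counts of reads on each of 763 mature miRNAs per library, without normalization or pooling. The submitters' processing notes name bcl2fastq, BWA and the build rn6, and the miRNA database, the alignment settings and the rule for reads matching several miRNAs are not given in the sources used here. No molecular identifiers were stated, so intervals and floors cover counting error only. Groups and replicate numbers came from the labels.

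The analysis used edgeR 4.0.16 (R 4.3.3). Its filterByExpr function, with a minimum count of 10 and a minimum total of 15, left 404 of the 598 miRNAs with any count. The groups were compared by glmQLFit and glmQLFTest with TMM factors and condition as the only term, with Benjamini-Hochberg adjustment over all 404. The common dispersion was 0.285. A standard error was derived from the test, as the absolute log2 fold change divided by the square root of its F statistic. Levels are TMM-normalized CPM computed from the counts without a prior count. Exact permutation tests on log2 CPM (0.5 CPM added) or on log2 ratios (0.5 added to each count) were two-sided. They cannot give a p below 0.1 with 3 libraries a group. Correlations between libraries used log2 CPM with a prior count of 2. The fit was tested on simulated data.

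All 10 guide strands were named, with the 4 listed passenger or related miRNAs of highest mean level and any of that list passing the criterion of the study. The members, lists and tests were chosen with earlier results of these data known, although the rule for the members uses no measured value. The alternatives were RLE, upper quartile and library size scaling, no filter, a minimum of 10 counts per library, limma-voom (limma 3.58.1), DESeq2 1.42.0, the exact test of edgeR, a robust fit, each library left out in turn and a replicate block. The deviations of libraries with the same replicate number correlated by 0.33, -0.28 and 0.28, and those with different numbers by -0.50 to 0.42. The numbers were therefore not taken as pairs, although 3 libraries a group cannot exclude a pairing. Sequences and positions came from RefSeq (GRCr8).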

Additional observations from a re-analysis of the deposited data

How the results depend on the processing

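The count of all miRNAs passing the criterion, 38, was 63 with no filter on low counts and ranged from 15 to 182 when each library was left out, 182 being without the third C-exo library, 15 without the first C-exo or the third R-exo library, 16 without the second R-exo library and 18 without the second C-exo library. The count at an adjusted p under 0.05 (edgeR) ranged from 0 to 132, and those of the guide strands from 0 to 2 by the criterion and from 0 to 1 by adjusted p, each highest without the third C-exo library. With all 6 libraries the guide strand counts were 0 under every alternative. The log2 fold change of miR-92a-3p reversed to 0.026 with RLE factors, 0.094 by library size alone, 0.0049 with upper quartile scaling, 0.026 with DESeq2, 0.042 with limma-voom and 0.0071 with the replicate block. The replicate block gave 38 calls, 25 of them higher in R-exo, and no call among the guide strands. It called miR-32-5p as higher (log2 fold change 1.58, edgeR unadjusted p = 0.040, edgeR adjusted p = 0.46). The shared replicate numbers were not taken as pairs. With 1 library left out, log2 fold changes ranged from -0.069 to 0.44 for miR-17-5p, from 0.47 to 1.75 for miR-20a-5p, from -0.062 to 0.45 for miR-19b-3p, from -0.42 to 0.41 for miR-92a-3p, from -0.25 to 0.34 for miR-25-3p and from -0.91 to 0.092 for miR-106b-3p. The differences of the log2 ratios ranged from -0.15 to 0.33 for miR-25-3p to miR-92a-3p and from -0.32 to 0.66 for miR-363-3p to miR-92a-3p. The causes were not tested.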
